A study of Mus musculus with 2 samples.

Results

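The genes described here are 40 cell cycle and replication genes: 18 that act around S phase, when DNA is copied, and 22 that act in G2 and mitosis. They were chosen by symbol, and all 40 were found among the 32285 features of both gene-by-cell matrices. The data are single-cell 3' transcript counts of live CD45+ immune cells sorted from B16-F0 tumours, a transplantable melanoma line, in mice. There is 1 wild-type (WT) and 1 knockout (KO) library. The labels do not name the deleted gene, the strain, the age or the number of animals pooled. Their cell-type field reads TIL-Treg, for regulatory T cells of the tumour, whereas the series design describes a sort on CD45 and viability alone, and the matrices hold T, NK, B and myeloid cells.

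A dividing cell first licenses its replication origins with the MCM helicase, then makes nucleotides and copies its DNA, and later condenses, aligns and separates its chromosomes. The S-phase genes are largely switched on by E2F factors once cyclin D and cyclin E kinases have inactivated the retinoblastoma family. The G2 and mitotic genes follow later, through MYB, FOXM1 and the MuvB complex, which binds promoters at a short motif called CHR. In tumours, antigen-activated T cells are among the immune cells that divide, while naive T cells and resting B cells are mostly quiescent.

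The same division was looked for in the promoter letters, because these motifs name the 2 programmes apart from any count. RefSeq windows of 300 bases around annotated starts (GRCm38.p6, 250 bases before to 50 after) were matched for 15 of the 18 S-phase and 17 of the 22 mitotic genes. The CHR motif, TTTGAA on either strand, lay in 13 of 18 mitotic windows (72.2%), in 1 of 17 S-phase windows (5.88%) and in 17.9% of all 32851 windows. CCAAT on either strand lay in 88.9% of mitotic, 64.7% of S-phase and 37.4% of all windows, and both motifs together in 72.2%, 5.88% and 6.95%. An E2F-type word (TTTGGCGC, TTTGCCGC, TTTCGCGC or TTTCCCGC, either strand, overlaps allowed) lay in 7 of 17 S-phase windows (41.2%), in 1 of 18 mitotic windows (5.56%), that of Cdk1, and in 2.26% of all windows. The single S-phase window with CHR was that of Mcm2. A match is a description of letters and not a measured binding site.

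The 5 stretches below, which end at the base before the annotated RefSeq start, show this contrast and, with Mcm2, its exception. They are written 5′ to 3′ with CCAAT in capitals on either strand, CHR in capitals for Mki67, Top2a, Kif11 and Mcm2, and E2F-type words in capitals for Mcm6.
Mki67 (mitotic), chr7:135716380-135716529, minus strand: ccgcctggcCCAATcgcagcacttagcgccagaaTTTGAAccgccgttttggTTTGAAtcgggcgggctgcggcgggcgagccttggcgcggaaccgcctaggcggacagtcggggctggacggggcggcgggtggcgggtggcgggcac
Top2a (mitotic), chr11:99024190-99024379, minus strand: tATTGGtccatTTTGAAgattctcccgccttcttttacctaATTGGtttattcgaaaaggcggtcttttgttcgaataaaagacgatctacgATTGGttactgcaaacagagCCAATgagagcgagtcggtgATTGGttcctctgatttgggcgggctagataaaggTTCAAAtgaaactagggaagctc
Kif11 (mitotic), chr19:37376282-37376381, plus strand: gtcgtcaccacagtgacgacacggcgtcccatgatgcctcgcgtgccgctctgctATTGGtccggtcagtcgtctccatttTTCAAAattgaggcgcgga
Mcm6 (S-phase), chr1:128359706-128359855, minus strand: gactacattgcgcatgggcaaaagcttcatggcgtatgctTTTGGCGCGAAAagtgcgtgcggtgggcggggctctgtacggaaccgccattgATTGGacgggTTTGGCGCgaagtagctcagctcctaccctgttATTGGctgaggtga
Mcm2 (S-phase), chr6:88898781-88898880, minus strand: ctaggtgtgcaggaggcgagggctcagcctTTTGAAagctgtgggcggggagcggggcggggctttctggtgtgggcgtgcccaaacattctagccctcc
The stretches of Mki67, the gene of a nuclear protein widely used to mark dividing cells, Top2a, which untangles DNA, and Kif11, a motor that pushes spindle poles apart, each hold CHR with CCAAT nearby. That of Mcm6, a subunit of the replicative helicase, holds 3 E2F-type matches, of which the first pair overlap. The stretch of Mcm2, another subunit, goes against the contrast: it holds CHR and no E2F-type match.

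**Figure D1:**
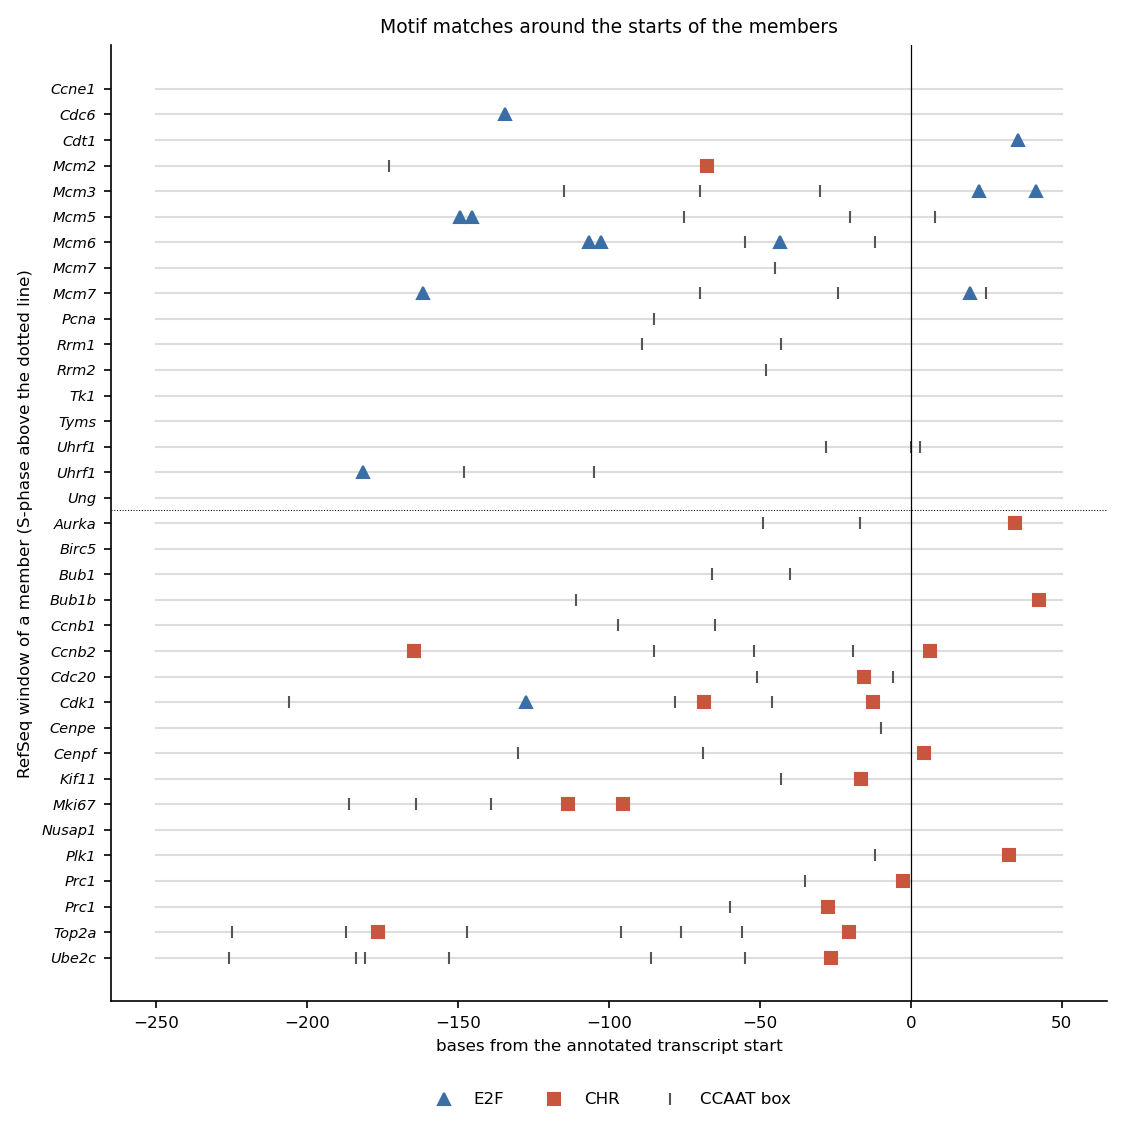
Each line is a RefSeq window of a member from 250 bases before to 50 after its annotated start (x axis, bases), S-phase genes above and mitotic genes below the dotted line. Squares mark CHR, triangles E2F-type words and ticks CCAAT; CHR lies in 13 of 18 mitotic windows and E2F-type words in 7 of 17 S-phase windows.

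The wild-type matrix holds 11432 barcodes and 98438084 UMIs (unique transcript molecules), and the knockout matrix 11398 barcodes and 112544655 UMIs, with 42 barcode sequences in both. After filters, 11153 and 11131 cells were left, with median depths of 5191 and 6360 UMIs. Each cell was gated into a class by markers that exclude the 40 genes, since clusters drew dividing cells of several lineages together. The gates placed 8906 and 9086 cells in 12 classes, of which the 10 with at least 100 cells in both libraries are compared. Plasmacytoid dendritic cells (182 and 84) and neutrophils (160 and 29) are not. Cells with markers of more than 1 lineage (618 and 575) were set aside, and they stood at 16164 and 17847 median UMIs. Defining markers matched the class names: for example, Cd8a stood at 361 and 371 UMIs per 1000000 UMIs of the class (CPM) in CD8 T cells and at 10.3 and 7.38 in CD4 T cells. Treg-like cells were gated without Foxp3, which stood at 155 CPM in wild-type and 36.2 CPM in knockout cells. The class name therefore rests on their other markers in the knockout library.

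Throughout, a pair of levels gives the wild-type value first and the knockout value second, in CPM. Parentheses after a pair hold the log2 ratio of knockout over wild type and its exact 95% interval. With 1 library per genotype there is no test, and every interval covers counting error only: neither the spread between mice nor the fact that UMIs of 1 cell come together. A gene is called higher or lower where it differs at least 1.5-fold with an interval that excludes no difference, which is a rule of size. Genes with fewer than 20 UMIs over both libraries of a class are not counted.

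Cycle gene RNA was concentrated in activated T cells, macrophages and conventional dendritic cells (cDC). The mitotic sum stood highest in CD8 T cells, at 1796 and 2408 CPM (0.42, 0.40 to 0.44), followed by CD4 T cells at 1758 and 1669 CPM (-0.075, -0.12 to -0.032) and Treg-like cells at 1480.3 and 1512 CPM (0.031, -0.029 to 0.091). These 3 T-cell classes lay well above the rest. Macrophages stood at 843 and 912 CPM (0.11, 0.066 to 0.16), cDC at 743 and 825 CPM (0.15, 0.10 to 0.20) and NK cells at 422 and 524 CPM (0.31, 0.25 to 0.38). The lowest sums were those of monocytes at 263 and 117 CPM (-1.17, -1.28 to -1.06), naive T cells at 129 and 291 CPM (1.18, 1.02 to 1.33), gamma-delta T cells at 74.5 and 441 CPM (2.56, 2.24 to 2.90) and B cells at 98.5 and 100.003 CPM (0.022, -0.25 to 0.28). In the wild-type library the CD8 and CD4 sums lay close together, and in the knockout library the CD8 sum was the highest by a wide margin.

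The S-phase sum had the same top and a higher floor. It stood at 968 and 1303 CPM (0.43, 0.40 to 0.46) in CD8 T cells, 891 and 950.0 CPM (0.092, 0.033 to 0.15) in CD4 T cells and 856 and 739 CPM (-0.21, -0.29 to -0.13) in Treg-like cells. It was 534 and 434 CPM (-0.30, -0.36 to -0.23) in macrophages, 424 and 422 CPM (-0.0069, -0.077 to 0.064) in cDC and 406 and 457 CPM (0.17, 0.10 to 0.24) in NK cells. In the wild-type library these 6 classes kept the order of their mitotic sums, and in the knockout library NK cells stood above macrophages and cDC. Naive T cells held 232 and 320.3 CPM (0.46, 0.33 to 0.59), gamma-delta T cells 238 and 429 CPM (0.85, 0.65 to 1.05), B cells 238 and 243 CPM (0.032, -0.14 to 0.20) and monocytes 201 and 186 CPM (-0.11, -0.21 to -0.0083). The median S-phase gene was 6.77-fold (wild type) and 5.09-fold (knockout) higher in CD8 T than in B cells, and the median mitotic gene 19.1-fold and 22.9-fold. At the low end stood Cdt1, a licensing factor, with 28.5 and 25.8 CPM in CD8 T and 34.8 and 26.5 CPM in B cells, so it did not separate a dividing from a resting class. Of the 18 S-phase genes 11 stood highest in CD8 T cells in the wild-type library and 17 in the knockout library, and of the 22 mitotic genes 14 and 21.

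**Figure D2:**
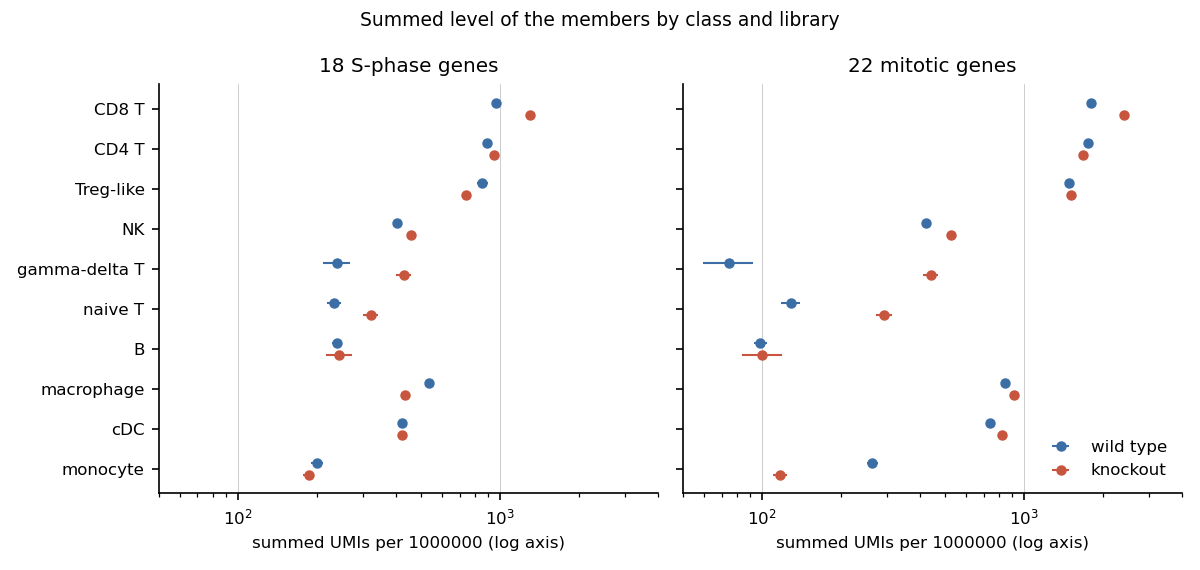
Summed level of the 18 S-phase genes (left) and 22 mitotic genes (right), in CPM on a log axis, in the 10 compared classes; points are single libraries and bars exact 95% Poisson intervals of counting error. CD8 T cells of the knockout library stand highest in both panels (1303 and 2408 CPM), and gamma-delta T cells show the widest gap between libraries in the mitotic panel.

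**Figure D3:**
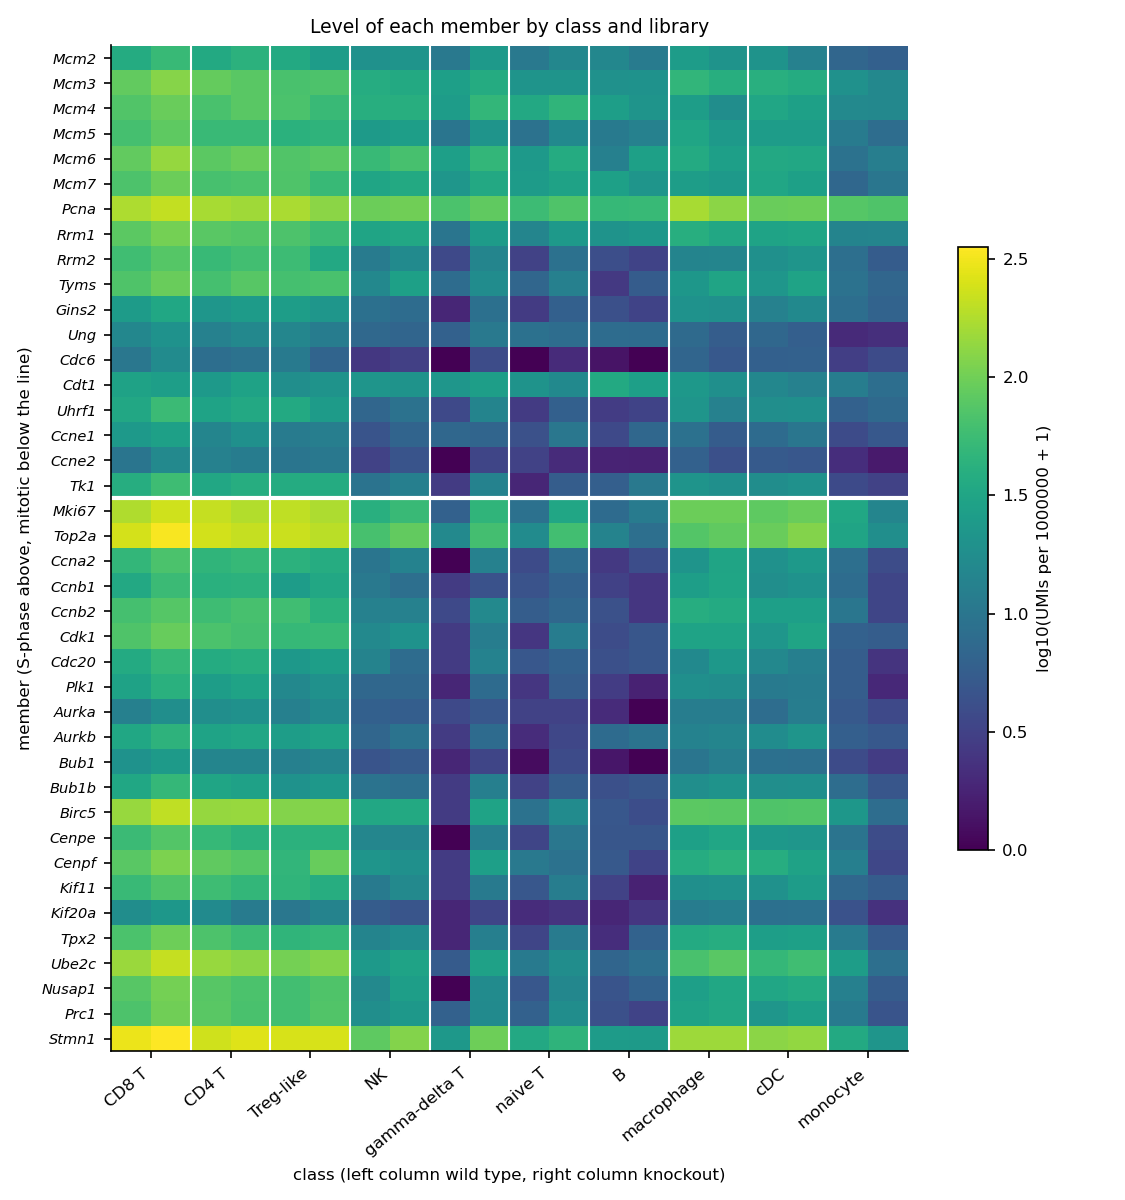
Level of each of the 40 genes as log10 of CPM plus 1, in the 10 compared classes, with the wild-type library in the left and the knockout library in the right column of each class. The brightest columns are those of CD8 T, CD4 T and Treg-like cells, while Cdt1 and Pcna also show in B and naive T cells.

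These sums came from a minority of cells. In CD8 T cells the 10% of cells with most mitotic UMIs held 84.5% and 73.5% of them, in CD4 T cells 95.2% and 95.98%, and in macrophages 86.1% and 93.2%. S-phase UMIs were spread more widely in the same classes, with 69.5% and 60.97% in that 10% of CD8 T cells, 82.4% and 80.4% of CD4 T cells and 64.8% and 66.6% of macrophages. In B cells that 10% held 76.8% and 51.5% of mitotic and 35.9% and 32.1% of S-phase UMIs. CD8 T cells made up 12.5% and 22.2% of gated cells and held 44.9% and 60.3% of their mitotic UMIs. B cells made up 36.5% and 3.91% and held 2.16% and 0.122%.

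To compare cells at 1 depth, each was thinned to 2000 UMIs and counted as mitotic-positive with at least 2 UMIs of the 22 genes. In CD8 T cells the positive share was 18.9% (16.6% to 21.3%) and 25.3% (23.4% to 27.2%), a difference of 6.35 points (95% interval 3.26 to 9.35). It was 12.5% (9.63% to 15.9%) and 11.6% (9.58% to 13.9%) in CD4 T, 12.5% (8.85% to 17.1%) and 12.3% (9.85% to 15.2%) in Treg-like and 3.42% (2.44% to 4.64%) and 3.28% (2.55% to 4.16%) in NK cells. Macrophages had 12.6% (9.57% to 16.1%) and 9.89% (7.54% to 12.7%) and cDC 11.1% (8.20% to 14.5%) and 9.66% (7.55% to 12.1%). B cells give the background, 1.25% (0.897% to 1.70%) and 2.31% (1.00% to 4.49%), at median depths before thinning of 3325 and 3396 UMIs against 7443 and 7540 for CD8 T cells. Naive T cells had 0.884% (0.325% to 1.91%) and 3.04% (1.63% to 5.15%) at 6146 and 5828 UMIs. Positive naive T cells held a mean of 4.17 and 6.31 mitotic UMIs of 2000 and positive B cells 2.88 and 2.13, so naive T cells are not used as background. Without thinning, the mitotic-positive share of CD8 T cells was 35.7% and 42.6%. The S-phase share was higher in these classes, 8.36% and 7.78% in B and 9.13% and 9.84% in naive T cells, and reached 23.2% and 32.3% in CD8 T cells.

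In CD8 T cells the gap between libraries was widest for cells positive for both programmes. The share positive for both was 11.9% (10.01% to 13.9%) and 18.6% (16.9% to 20.4%), while that positive for mitotic UMIs alone was 7.06% and 6.64% and for S-phase UMIs alone 11.3% and 13.6%. Mitotic-positive CD8 T cells held a mean of 8.17 and 8.52 mitotic UMIs of 2000 after thinning. Without thinning they held 58.6 and 75.5, a mean that also moves with the depth of each cell. For Mki67 alone, thinned shares of CD8 T cells with a UMI were 10.6% and 14.6% (unthinned 25.5% and 31.03%), against 0.658% and 1.73% of B cells.

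**Figure D4:**
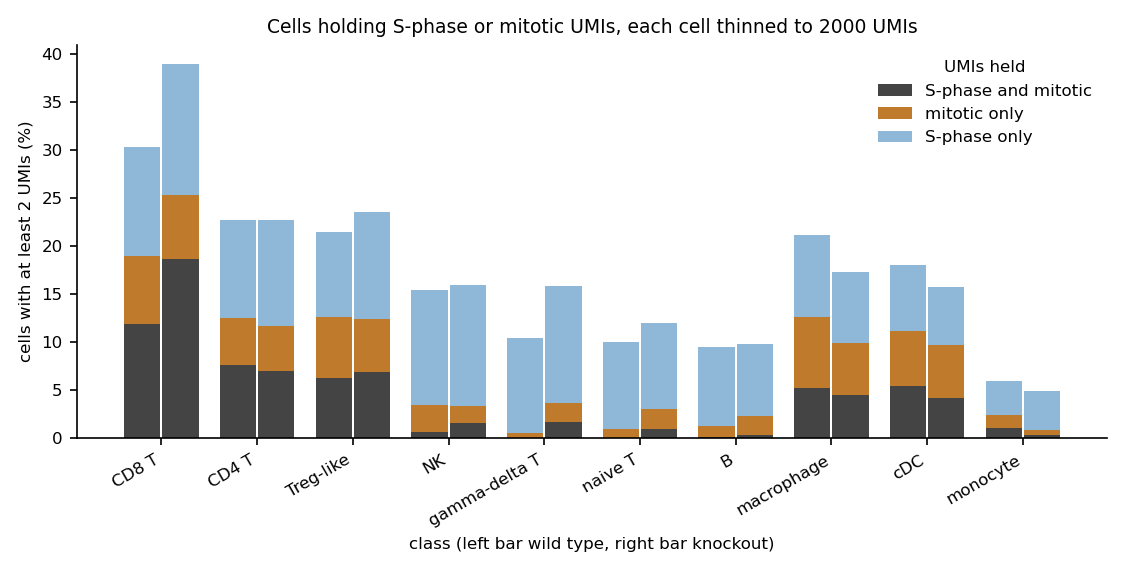
Percent of cells with at least 2 UMIs of S-phase genes, mitotic genes or both after thinning each cell to 2000 UMIs, in 10 classes, left bar wild type and right bar knockout. In CD8 T cells the part with both programmes is 11.9% and 18.6%, while B and naive T cells hold mainly cells with S-phase UMIs alone.

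CD8 T cells, the cytotoxic arm of the T-cell response, held more cycle RNA in the knockout library across nearly the whole list. Of 1110 wild-type and 2014 knockout cells, the ratio was above 0 for 17 of 18 S-phase and 22 of 22 mitotic genes, with medians of 0.41 and 0.47 beside 0.027 over all 12368 genes measured. The differences were small per gene: 4 S-phase and 2 mitotic genes were called higher and none lower, where 2.88% of all genes were called higher and 5.67% lower. Which genes pass depends on how cells were chosen. Beside these 6 genes called higher, stricter gates gave 24, thinned cells 9 and classes from clusters 0. Pooling all T cells, gated subtype or not, gave 757 and 1029 CPM (0.44, 0.42 to 0.46) for S-phase and 1283 and 1833 CPM (0.51, 0.50 to 0.53) for mitotic genes. These pools differ in makeup: of 3406 and 5255 T cells, 1110 and 2014 were CD8 and 687 and 436 naive T cells, so the pooled ratios also move with the mix of classes.

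Among the licensing genes, whose products load the helicase on DNA, Cdc6, the loader, stood at 9.35 and 16.2 CPM (0.79, 0.50 to 1.09). Its partner Cdt1 stood at 28.5 and 25.8 CPM (-0.15, -0.33 to 0.040), the only one of the 40 with a ratio below 0. Cdc6 was thus called higher and Cdt1 was not called. The helicase subunit Mcm6 stood at 86.4 and 139 CPM (0.68, 0.59 to 0.78) and was called higher. The other subunits had smaller ratios. Mcm5 stood at 62.1 and 81.8 CPM (0.40, 0.28 to 0.52), Mcm2 at 35.8 and 51.5 CPM (0.52, 0.37 to 0.68) and Mcm3 at 86.3 and 122 CPM (0.50, 0.41 to 0.60). Mcm4 stood at 71.6 and 91.1 CPM (0.35, 0.24 to 0.46) and Mcm7 at 67.9 and 94.1 CPM (0.47, 0.36 to 0.58). All 6 helicase genes were above 0, and Mcm6 alone passed 1.5-fold.

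Of the genes that run replication, Pcna, the sliding clamp of DNA polymerase, stood at 172 and 209 CPM (0.28, 0.21 to 0.35). Gins2, a part of the active helicase, stood at 24.2 and 31.8 CPM (0.40, 0.21 to 0.59). Nucleotide supply moved by like amounts: Rrm1 and Rrm2, the subunits of ribonucleotide reductase, stood at 79.5 and 103 CPM (0.37, 0.27 to 0.48) and 58.4 and 74.5 CPM (0.35, 0.23 to 0.47). Tyms, which makes thymidylate, stood at 69.4 and 91.95 CPM (0.41, 0.30 to 0.52), and Tk1, the thymidine salvage kinase, at 38.3 and 56.2 CPM (0.55, 0.41 to 0.70). None of these 6 passed 1.5-fold. Ung, which removes uracil from DNA, stood at 14.3 and 19.1 CPM (0.41, 0.17 to 0.66). Uhrf1, which guides copying of DNA methylation, stood at 33.05 and 54.02 CPM (0.71, 0.55 to 0.87) and was called. Of the E cyclins, which start S phase with Cdk2, Ccne2 stood at 8.89 and 14.8 CPM (0.73, 0.43 to 1.04) and was called, and Ccne1 at 22.7 and 27.3 CPM (0.27, 0.070 to 0.47) was not.

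For the mitotic genes the values were as even. Cdk1, the mitotic kinase, stood at 69.3 and 89.8 CPM (0.37, 0.26 to 0.49), and its cyclins Ccna2, Ccnb1 and Ccnb2 at 48.5 and 67.2 CPM (0.47, 0.34 to 0.60), 33.97 and 53.95 CPM (0.67, 0.51 to 0.82) and 62.3 and 74.1 CPM (0.25, 0.13 to 0.37). Among the cyclins only Ccnb1 was called. The mitotic kinases Plk1, Aurka and Aurkb stood at 28.3 and 40.3 CPM (0.51, 0.34 to 0.68), 11.9 and 17.4 CPM (0.55, 0.28 to 0.82) and 32.4 and 43.8 CPM (0.43, 0.27 to 0.60). Birc5, the survivin subunit of the Aurora B complex, stood at 143 and 200.3 CPM (0.48, 0.41 to 0.56). The spindle checkpoint kinases Bub1 and Bub1b stood at 18.8 and 23.5 CPM (0.33, 0.11 to 0.54) and 32.05 and 48.6 CPM (0.60, 0.44 to 0.76). Bub1b was called higher, and the others were above 0 without passing 1.5-fold. Cdc20 and Ube2c, which drive the anaphase-promoting complex, stood at 34.96 and 49.6 CPM (0.51, 0.35 to 0.66) and 147 and 209.9 CPM (0.51, 0.44 to 0.59).

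The kinetochore proteins Cenpe, a motor, and Cenpf stood at 53.7 and 72.5 CPM (0.43, 0.31 to 0.56) and 78.5 and 110.05 CPM (0.49, 0.38 to 0.59). The spindle motors Kif11 and Kif20a stood at 52.8 and 69.8 CPM (0.40, 0.27 to 0.53) and 16.8 and 21.2 CPM (0.33, 0.11 to 0.57). The spindle microtubule proteins Tpx2, Nusap1 and Prc1 stood at 66.2 and 96.2 CPM (0.54, 0.43 to 0.65), 76.8 and 102 CPM (0.41, 0.31 to 0.52) and 68.5 and 98.4 CPM (0.52, 0.41 to 0.63). None of these 7 was called. Stmn1, which destabilises microtubules, stood at 302 and 355 CPM (0.24, 0.18 to 0.29), the lowest ratio of the mitotic set. The chromosome genes Top2a and Mki67 stood at 240.2 and 334 CPM (0.47, 0.42 to 0.53) and 177 and 230.2 CPM (0.38, 0.31 to 0.44). The 22 mitotic ratios spanned 0.24 to 0.67, a narrower range than the -0.15 to 0.79 of the S-phase genes. Both CD8 sums stayed above 0 under the 8 alternatives run, and both were lowest, at 0.19 and 0.21, with classes taken from clusters instead of gates.

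**Figure D5:**
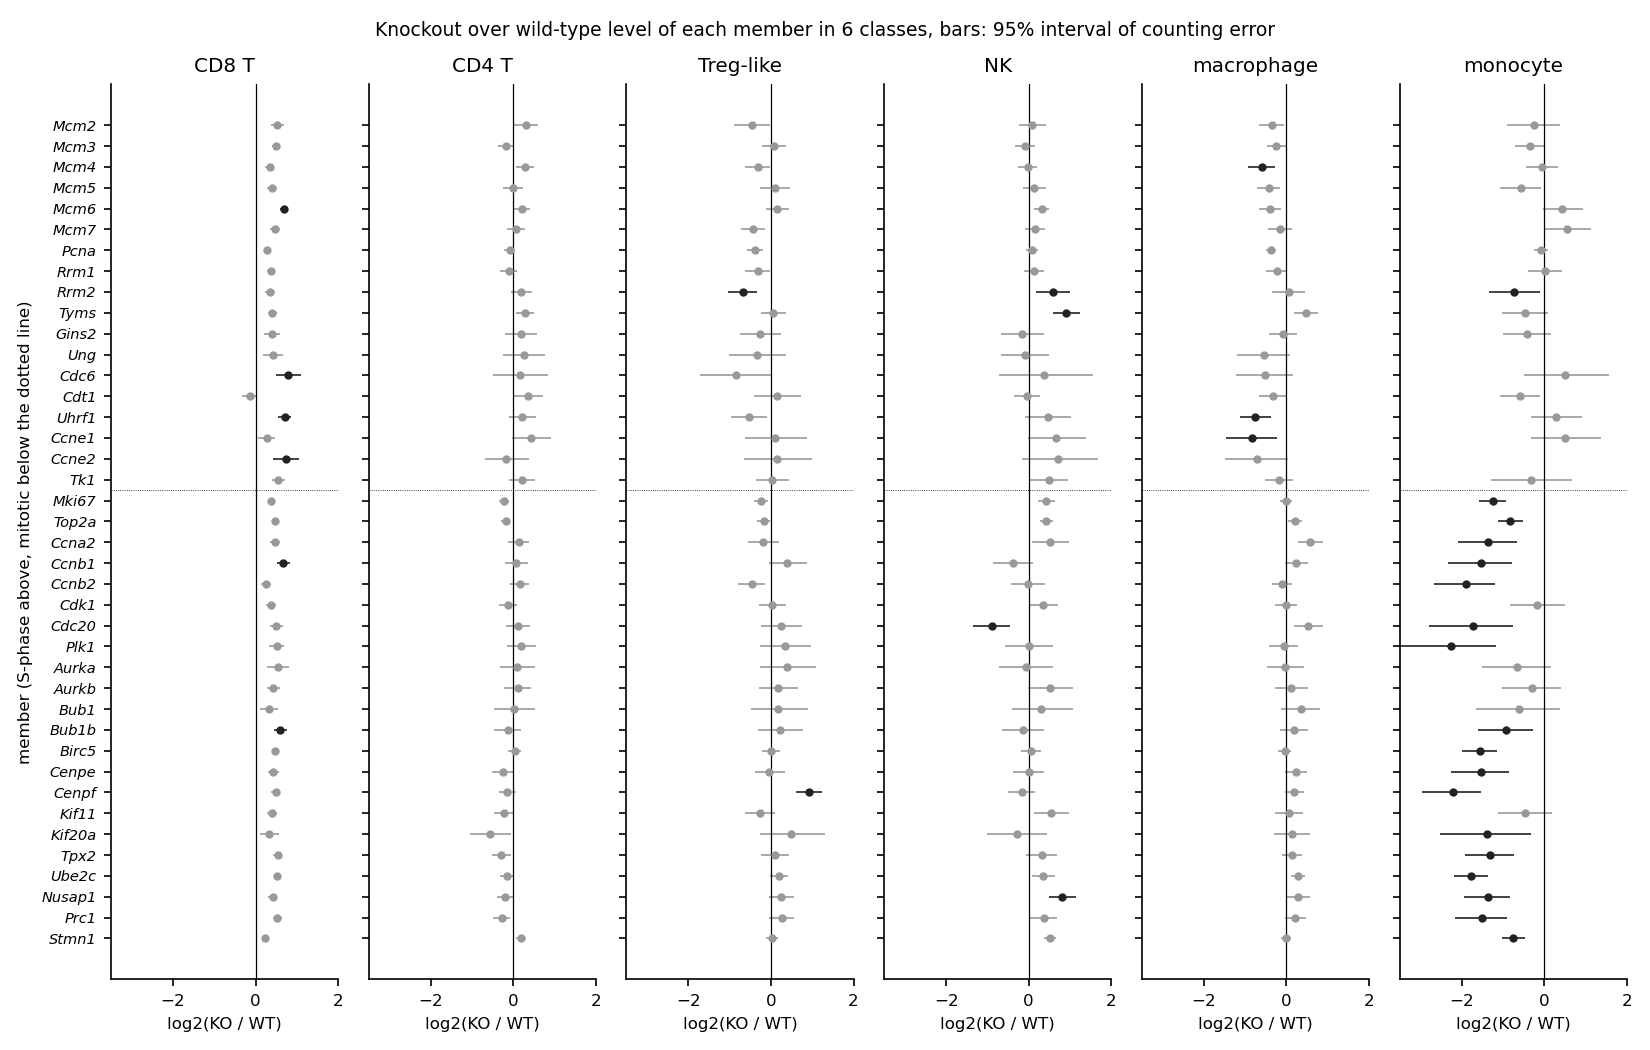
Log2 ratio of knockout over wild-type level for each measured gene in 6 classes, S-phase genes above and mitotic genes below the dotted line; bars are exact 95% intervals of counting error and dark points are called at 1.5-fold. In CD8 T cells 39 of 40 points lie right of 0, in monocytes all 22 mitotic points lie left of it, and in CD4 T cells no point is called.

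The CD8 T cells were then divided by clusters built without the 40 genes and the other cycle genes listed further on, though not without histones. Cluster 7, led by Ccl5 and Gzmk, held 49.9 and 45.7% of CD8 T cells and stood at 417 and 439 CPM for S-phase and 512 and 268 CPM for mitotic genes. Cluster 16, led by Gzmf, the immunoglobulin gene Igha, Ccl1 and Gzme, with Ifng, Pdcd1 and Lag3 among its top genes, held 14.2 and 24.2% and stood at 952 and 1273 CPM and 1077 and 1881 CPM. Mitotic levels were thus lower in the knockout library in cluster 7 and higher in cluster 16. Thinned mitotic-positive shares were 8.53% (6.33% to 11.2%) and 5.04% (3.71% to 6.66%) in cluster 7, and 28.2% (21.3% to 35.96%) and 40.3% (35.9% to 44.8%) in cluster 16. Cluster 12, led by histone genes with Top2a and Nusap1 among its top genes, held 7.21 and 11.6%. It stood at 5352 and 5272 CPM for mitotic genes, and 98.75% and 98.3% of its cells were mitotic-positive after thinning. Cluster 6, led by the resting T-cell genes Dapl1, Lef1 and Tcf7, held 14.7 and 6.41% and stood at 49.3 and 67.2 CPM. The higher CD8 sum went with larger parts of clusters 12 and 16 and a smaller part of cluster 6, beside a higher level within cluster 16. Cells of cluster 12 were the deepest, at medians of 25636.5 and 30414 UMIs, so they weigh heavily in the sum. Its part restates the share of dividing cells and is not separate from the sum. How much of the difference each cluster gave was not tested. Plasma cell markers stood at 85.0 and 92.1 CPM in all CD8 T cells, against 3.43 and 3.97 CPM in CD4 T cells; their part in the result was not tested.

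In CD4 T cells the libraries were close. Among 468 wild-type and 900 knockout cells, none of the 40 genes was called, where 2.23% of all genes were called higher and 4.58% lower. The lowest ratios were those of Kif20a at 15.7 and 10.6 CPM (-0.56, -1.06 to -0.054), Tpx2 at 67.8 and 55.6 CPM (-0.29, -0.51 to -0.059) and Prc1 at 79.1 and 65.1 CPM (-0.28, -0.49 to -0.070). The highest were those of Ccne1 at 13.5 and 18.2 CPM (0.43, -0.035 to 0.91), Cdt1 at 22.3 and 28.4 CPM (0.35, -0.015 to 0.72) and Mcm2 at 34.8 and 42.98 CPM (0.31, 0.014 to 0.60). The 3 lowest are mitotic and the 3 highest S-phase genes, and the intervals of Ccne1 and Cdt1 include a ratio of 0. Mki67 stood at 211 and 181 CPM (-0.22, -0.34 to -0.091), Top2a at 239.6 and 211 CPM (-0.18, -0.30 to -0.067) and Stmn1 at 234 and 266 CPM (0.18, 0.071 to 0.30). Mki67 and Top2a thus stood slightly lower and Stmn1 slightly higher in the knockout library, beyond counting error. Pcna stood at 164 and 154 CPM (-0.088, -0.23 to 0.053), Mcm5 at 52.9 and 52.5 CPM (-0.010, -0.26 to 0.24) and Ccnb1 at 40.4 and 42.4 CPM (0.071, -0.21 to 0.35). Their intervals all include no difference. The median was 0.20 for S-phase and -0.13 for mitotic genes. The mitotic sum turned above 0 (0.36) with stricter gates, so its direction was not settled. The gate needs a Cd4 or Cd40lg UMI and so can miss cells of low depth. Median depths of gated CD4 T cells were 5104.5 and 5109 UMIs. T cells that met no subtype gate had 5495 and 4973.5 UMIs.

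In Treg-like cells 1 of the 40 genes was called lower and 1 higher, shares near those over all genes. Among 276 wild-type and 651 knockout cells, Rrm2 was called lower at 54.6 and 33.9 CPM (-0.69, -1.04 to -0.33), and Cenpf higher at 47.2 and 89.4 CPM (0.92, 0.61 to 1.25), beside 2.63% of all genes called lower and 2.86% higher. For Cenpf 1 cell held 19.3% of the knockout UMIs. The next lowest were Uhrf1 at 34.8 and 23.9 CPM (-0.54, -0.97 to -0.11) and Ccnb2 at 57.8 and 41.8 CPM (-0.47, -0.80 to -0.13), and the next highest Kif20a at 9.17 and 12.9 CPM (0.49, -0.26 to 1.30) and Ccnb1 at 24.8 and 32.6 CPM (0.40, -0.055 to 0.87). Of these 4, the intervals of Uhrf1 and Ccnb2 exclude a ratio of 0 and the other two include it. Pcna stood at 166 and 128 CPM (-0.38, -0.57 to -0.19), Mki67 at 204 and 173 CPM (-0.24, -0.40 to -0.067) and Top2a at 219 and 194 CPM (-0.18, -0.34 to -0.015). Stmn1 stood at 247 and 250.2 CPM (0.018, -0.13 to 0.17) and Mcm5 at 41.7 and 44.3 CPM (0.086, -0.27 to 0.46). The ratio was above 0 for 8 of 18 S-phase and 16 of 22 mitotic genes, with medians of -0.29 and 0.17. The S-phase sum turned above 0 in thinned cells (0.061) and with classes from clusters (0.26), so a direction for the S-phase genes was not settled. The mitotic sum was -0.22 in thinned cells, -0.16 with stricter gates, -0.061 without top doublet scores and 0.90 with classes from clusters, so its direction was not settled either.

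NK cells, innate cytotoxic lymphocytes, held lower levels than the activated T cells in both libraries. Among 1148 wild-type and 2034 knockout cells, Tyms was called higher at 14.6 and 27.3 CPM (0.91, 0.58 to 1.25), Nusap1 at 14.9 and 26.1 CPM (0.82, 0.49 to 1.15) and Rrm2 at 10.5 and 15.8 CPM (0.59, 0.18 to 1.00). Cdc20 was called lower at 12.98 and 6.96 CPM (-0.90, -1.36 to -0.45). Of all genes 2.21% were called higher and 1.53% lower. Near these stood Ccne2 at 2.16 and 3.57 CPM (0.72, -0.17 to 1.69) on the high side and Ccnb1 at 9.81 and 7.496 CPM (-0.39, -0.87 to 0.10) and Kif20a at 4.47 and 3.66 CPM (-0.29, -0.998 to 0.43) on the low side. The intervals of these 3 include no difference. Stmn1 stood at 82.2 and 118 CPM (0.52, 0.38 to 0.67), Mki67 at 39.4 and 52.9 CPM (0.43, 0.22 to 0.64) and Top2a at 63.2 and 85.05 CPM (0.43, 0.26 to 0.60). Mcm5 stood at 23.5 and 25.9 CPM (0.14, -0.14 to 0.42) and Pcna at 94.03 and 99.7 CPM (0.084, -0.057 to 0.23). The mitotic sum rests on few cells, 5 and 12 of which held 50% of the UMIs, and it turned to -0.039 in thinned cells. Erythroid markers stood at 746 and 3.66 CPM in NK cells; their part in the result was not tested.

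In gamma-delta T cells, T cells with an alternative antigen receptor, 10 of 14 measured S-phase and 16 of 16 measured mitotic genes were called higher in the knockout library, where 3.67% of all genes were called higher and 2.25% lower. These counts rest on 194 wild-type and 364 knockout cells, and 2 knockout cells held 50% of the mitotic UMIs. The class held 85 wild-type and 910 knockout mitotic UMIs, and 272 and 885 S-phase UMIs. Genes of both sets thus reached the minimum of 20 UMIs mainly through knockout cells. The counts of 10 of 14 and 16 of 16 are set in part by that minimum. Neither can be weighed against the share over all genes. Birc5 stood at 1.75 and 29.5 CPM (4.08, 2.16 to 7.15), Cenpf at 1.75 and 26.6 CPM (3.93, 2.004 to 7.01) and Mki67 at 5.26 and 46.01 CPM (3.13, 1.95 to 4.61), each from 6 or fewer wild-type UMIs. Few wild-type transcripts thus stand behind the widest ratios. Stmn1 stood at 21.9 and 97.4 CPM (2.15, 1.55 to 2.81), Top2a at 14.9 and 60.5 CPM (2.02, 1.29 to 2.85) and Mcm5 at 8.76 and 19.9 CPM (1.18, 0.16 to 2.34). The lowest ratios were those of Mcm3 at 26.3 and 36.3 CPM (0.47, -0.16 to 1.13), Pcna at 65.7 and 84.8 CPM (0.37, -0.032 to 0.78) and Cdt1 at 21.04 and 26.2 CPM (0.31, -0.40 to 1.07), and Ccnb1 had 2 and 7 UMIs, 1.75 and 3.39 CPM (0.95, -1.44 to 4.25). Nusap1, Ccna2 and Cenpe had no wild-type UMI. Without the cell with most mitotic UMIs in each library, chosen after seeing the data, the mitotic sum was 58.3 and 310.1 CPM (2.41, 2.04 to 2.80). The thinned mitotic-positive share was 0.518% (0.0131% to 2.85%) and 3.66% (1.96% to 6.18%). Classes from clusters gave 0.044 for the mitotic and 0.29 for the S-phase sum.

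Naive T cells, gated on Ccr7, Lef1 and other resting genes, held 8 of 15 measured S-phase and 12 of 18 measured mitotic genes called higher, beside 5.43% of all genes higher and 1.51% lower. Within the class, the part in its main cluster, cluster 6, was 76.6% and 58.9%, Treg markers stood at 198 and 343 CPM and cDC markers at 40.8 and 111 CPM; their part in the result was not tested. Here too single cells carried the sum: 1 wild-type cell held 56.9% and 1 knockout cell 34.8% of the mitotic UMIs. Among 687 wild-type and 436 knockout cells, Mki67 stood at 7.89 and 31.2 CPM (1.99, 1.41 to 2.59), Top2a at 16.002 and 58.9 CPM (1.88, 1.47 to 2.30) and Nusap1 at 3.95 and 14.01 CPM (1.83, 0.99 to 2.72). Mcm5 stood at 8.11 and 15.1 CPM (0.89, 0.22 to 1.57), Stmn1 at 33.8 and 44.9 CPM (0.41, 0.059 to 0.76) and Pcna at 55.02 and 69.7 CPM (0.34, 0.063 to 0.62). The first 4 of these 6 were called. The lowest ratios were those of Cdt1 at 19.5 and 15.4 CPM (-0.34, -0.90 to 0.20), Cenpf at 9.86 and 8.26 CPM (-0.26, -1.05 to 0.50) and Ung at 7.89 and 7.18 CPM (-0.14, -1.002 to 0.69), and Ccnb1 stood at 3.51 and 5.39 CPM (0.62, -0.50 to 1.73). The mitotic sum turned to -0.27 with stricter gates and to -0.76 with classes from clusters, so its direction was not settled.

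B cells gave a resting level in both libraries, but the direction of their mitotic sum was not settled. In the wild-type library 1 cell held 26.0% of the mitotic UMIs. Without the cell with most mitotic UMIs in each library, chosen after seeing the data, the log2 ratio of that sum was 0.42 (0.15 to 0.69). With classes from clusters it was below 0. Among 3247 wild-type and 355 knockout cells, Mcm6 was called higher at 11.9 and 27.3 CPM (1.20, 0.62 to 1.73), Tk1 at 4.90 and 9.85 CPM (1.01, 0.011 to 1.89) and Tpx2 at 1.14 and 5.30 CPM (2.22, 0.65 to 3.65), beside 2.87% of all genes higher and 2.40% lower. Mcm6 of B cells came from 136 and 36 UMIs, with at most 2.78% in 1 cell. Tk1 had 13 and Tpx2 7 knockout UMIs. Of the 3 called genes, Mcm6 thus rests on the most transcripts. Pcna stood at 50.4 and 51.5 CPM (0.031, -0.35 to 0.40), Stmn1 at 23.9 and 23.5 CPM (-0.025, -0.61 to 0.51) and Mcm5 at 9.89 and 12.1 CPM (0.29, -0.56 to 1.05). These 3 did not differ beyond counting error. Mki67 stood at 6.74 and 10.6 CPM (0.65, -0.28 to 1.49), Top2a at 12.8 and 7.58 CPM (-0.75, -1.85 to 0.17) and Cenpf at 4.11 and 2.27 CPM (-0.86, -3.18 to 0.78). Mcm7 stood at 27.1 and 20.5 CPM (-0.41, -1.03 to 0.16) and Ccnb1, with 24 and 2 UMIs, at 2.10 and 1.52 CPM (-0.47, -3.60 to 1.54). The intervals of the last 5 include no difference. Erythroid markers stood at 273 and 6.82 CPM in B cells; their part in the result was not tested.

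In macrophages the S-phase sum was lower in the knockout library, and the direction of the mitotic sum was not settled. Among 431 wild-type and 569 knockout cells, the ratio was above 0 for 2 of 18 S-phase genes (median -0.36) and for 15 of 22 mitotic genes (median 0.16), beside -0.079 over all 11167 genes measured. Ccne1 was called lower at 7.95 and 4.47 CPM (-0.83, -1.47 to -0.22), Uhrf1 at 20.6 and 12.3 CPM (-0.75, -1.13 to -0.38) and Mcm4 at 25.6 and 16.98 CPM (-0.59, -0.92 to -0.27), and none was called higher, where 5.53% of all genes were called lower and 2.20% higher. Ccne2 stood at 5.22 and 3.19 CPM (-0.71, -1.48 to 0.039), Mcm5 at 30.8 and 22.8 CPM (-0.43, -0.72 to -0.15) and Pcna at 165 and 128 CPM (-0.37, -0.49 to -0.25). The highest ratios were those of Ccna2 at 19.999 and 29.9 CPM (0.58, 0.28 to 0.88), Cdc20 at 15.2 and 21.95 CPM (0.53, 0.19 to 0.88) and Tyms at 21.6 and 29.996 CPM (0.47, 0.18 to 0.76). The 3 called genes are S-phase genes, and the 3 highest come from both sets. Mki67 stood at 94.4 and 93.3 CPM (-0.017, -0.17 to 0.13), Stmn1 at 151 and 149.9 CPM (-0.013, -0.13 to 0.10), Top2a at 72.7 and 84.1 CPM (0.21, 0.048 to 0.37) and Ccnb1 at 25.7 and 30.4 CPM (0.24, -0.034 to 0.52). Mitotic genes made up 61.2% of member UMIs in wild-type and 67.8% in knockout macrophages. T-cell markers stood at 168 and 134 CPM in macrophages, capped by the gate, against 5438 and 5241 CPM in CD8 T cells, and erythroid markers at 667 and 521 CPM; their part in the result was not tested. In cells thinned to 1 depth (medians before were 12355 and 9536 UMIs) the S-phase sum was -0.23 and the mitotic sum -0.24, so at equal depth the sums stood on the same side of 0.

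Conventional dendritic cells, which present antigen to T cells, differed little in either sum. Among 407 wild-type and 685 knockout cells, Mcm2 was called lower at 19.5 and 12.2 CPM (-0.67, -1.05 to -0.30) and Aurka higher at 7.23 and 11.1 CPM (0.62, 0.11 to 1.14), beside 2.36% of all genes lower and 3.95% higher, so these counts do not stand apart from the background. Cdk1 stood at 21.1 and 29.6 CPM (0.49, 0.19 to 0.80) and Tyms at 20.9 and 28.99 CPM (0.47, 0.17 to 0.78) at the high end, and Cenpf at 38.3 and 28.8 CPM (-0.41, -0.66 to -0.16) and Cdc20 at 14.5 and 11.6 CPM (-0.32, -0.73 to 0.10) at the low end. Each end thus held genes of both sets. Top2a stood at 92.4 and 118 CPM (0.36, 0.21 to 0.50), Mki67 at 81.6 and 91.9 CPM (0.17, 0.014 to 0.33) and Ccnb1 at 17.1 and 18.9 CPM (0.15, -0.20 to 0.50). Stmn1 stood at 128 and 136 CPM (0.086, -0.041 to 0.21), Pcna at 91.01 and 94.6 CPM (0.055, -0.10 to 0.21) and Mcm5 at 24.9 and 24.98 CPM (0.0046, -0.29 to 0.30). The mitotic sum turned to -0.25 in thinned cells.

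Gated monocytes held less mitotic RNA in the knockout library, a difference carried by few cells. Among 596 wild-type and 965 knockout cells, 17 of 22 measured mitotic genes were called lower in the knockout library and none higher, and of the S-phase genes only Rrm2 was called lower, at 7.54 and 4.58 CPM (-0.72, -1.34 to -0.11). Of all genes 5.33% were called lower and 3.03% higher. Cenpf stood at 11.7 and 2.51 CPM (-2.22, -2.95 to -1.54), Ccnb2 at 8.97 and 2.40 CPM (-1.90, -2.67 to -1.18) and Ube2c at 25.6 and 7.53 CPM (-1.77, -2.19 to -1.36). Ccnb1 stood at 6.97 and 2.40 CPM (-1.54, -2.34 to -0.79), Mki67 at 32.2 and 13.6 CPM (-1.24, -1.56 to -0.92), Top2a at 30.2 and 17.1 CPM (-0.82, -1.12 to -0.51) and Stmn1 at 34.6 and 20.6 CPM (-0.75, -1.03 to -0.47). These 7, with roles from cyclin to chromosome, were all called lower. On the S-phase side Mcm7 stood at 6.12 and 9.06 CPM (0.57, 0.017 to 1.13), Ccne1 at 2.85 and 4.04 CPM (0.50, -0.32 to 1.37) and Mcm6 at 8.25 and 11.2 CPM (0.45, -0.033 to 0.94), while Mcm5 stood at 10.5 and 7.09 CPM (-0.57, -1.07 to -0.070) and Pcna at 74.01 and 70.3 CPM (-0.075, -0.24 to 0.095). In each library 3 cells held 50% of the mitotic UMIs, and the top cell held 25.2% and 27.9%. The thinned mitotic-positive share was 2.36% (1.29% to 3.92%) and 0.835% (0.361% to 1.64%), which is 14 and 8 cells. The sum was -0.35 with stricter gates and 0.52 with classes from clusters. Cluster 0, classed there as monocyte, was also the main cluster of gated macrophages (60.8% and 72.9% of them). The value of 0.52 is thus not one of monocytes alone and cannot decide the direction. With gated cells the mitotic sum stayed below 0 under the alternatives run, thinning among them. Without the cell with most mitotic UMIs in each library, chosen after seeing the data, it was -1.24 (-1.37 to -1.11). The thinned share differed by -1.52 points (-3.16 to -0.19), but by 0.142 points (-2.90 to 3.01) counting cells from 1 UMI. The direction is thus given for the sum of gated cells only. Erythroid markers stood at 898 and 5.78 CPM in monocytes and plasma cell markers at 15.8 and 68.3 CPM; their part in the result was not tested.

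Other genes of the cycle were read as 7 lists, in counts of measured genes called by the same rule. In CD8 T cells, further replication genes were 4 higher and 0 lower of 26 (median 0.41), further mitosis genes 4 higher and 0 lower of 34 (median 0.34) and checkpoint and repair genes 1 higher and 0 lower of 10 (median 0.45). Of all genes in CD8 T cells, 2.88% were called higher and 5.67% lower. Orc1, an origin-binding subunit, stood at 3.91 and 6.62 CPM (0.76, 0.30 to 1.24), Mcm10 at 12.3 and 20.7 CPM (0.76, 0.50 to 1.02) and Gins1 at 4.60 and 7.77 CPM (0.76, 0.34 to 1.20). Ttk, a checkpoint kinase, stood at 8.51 and 13.4 CPM (0.66, 0.35 to 0.98), Cks1b, a Cdk-binding subunit, at 117 and 182 CPM (0.64, 0.56 to 0.73), and Chek1, the replication checkpoint kinase, at 9.58 and 15.99 CPM (0.74, 0.45 to 1.04). The lists of G1 control follow. G1 cyclins and their partners, a list that also holds the G2/M phosphatase Cdc25c, were 1 higher and 1 lower of 9 (median 0.10), Cdk inhibitors 1 higher and 0 lower of 7 (median -0.048), and E2F, pocket proteins and drivers 1 higher and 0 lower of 14 (median 0.18). The higher one was Cdc25c at 5.83 and 8.88 CPM (0.61, 0.23 to 0.9997), which the mitosis list also counts. Cyclin D1 (Ccnd1) stood at 16.4 and 9.21 CPM (-0.83, -1.10 to -0.56) and the inhibitor Cdkn2a at 29.3 and 47.4 CPM (0.70, 0.53 to 0.86). Markers of cDC stood at 141 and 89.7 CPM in CD8 T cells, and their part in the Ccnd1 value was not tested. Mybl2, the B-MYB factor of the mitotic programme, stood at 9.05 and 13.7 CPM (0.60, 0.29 to 0.91). Chromatin and tubulin genes that follow proliferation were 0 higher and 0 lower of 8 (median 0.19), with Tuba1b at 424 and 586 CPM (0.47, 0.42 to 0.51).

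In Treg-like cells these lists gave 0 higher and 1 lower of 26 (median -0.25) for replication, 3 higher and 1 lower of 34 (median 0.032) for mitosis, 0 higher and 3 lower of 10 (median -0.37) for checkpoint and repair and 0 higher and 2 lower of 14 (median -0.44) for E2F and drivers. Of all genes in Treg-like cells, 2.86% were called higher and 2.63% lower. Brca2, a repair factor, stood at 13.8 and 7.69 CPM (-0.84, -1.57 to -0.093), Timeless at 19.3 and 11.02 CPM (-0.80, -1.42 to -0.19) and Clspn, the Chek1 adaptor, at 52.7 and 31.6 CPM (-0.74, -1.10 to -0.38). The repressor E2f8 stood at 14.7 and 8.11 CPM (-0.86, -1.57 to -0.13), and Ncaph, a condensin subunit, at 10.1 and 22.04 CPM (1.13, 0.46 to 1.86). Replication and checkpoint medians were thus below 0 and the mitosis median near 0. In monocytes, mitosis genes were 0 higher and 14 lower of 29 (median -0.71), led by Hmmr at 7.26 and 1.64 CPM (-2.15, -3.09 to -1.30), and replication genes 1 higher and 3 lower of 24 (median -0.33). Of all genes in monocytes, 3.03% were called higher and 5.33% lower. In macrophages, replication genes were 0 higher and 3 lower of 26 (median -0.28) and mitosis genes 0 higher and 0 lower of 34 (median 0.094), with Mcm10 at 6.71 and 3.83 CPM (-0.81, -1.50 to -0.14). Of all genes in macrophages, 2.20% were called higher and 5.53% lower. The inhibitor Cdkn1c stood at 8.82 and 2.04 CPM (-2.11, -2.99 to -1.31) in macrophages, the widest ratio of any list gene there with 50 UMIs or more. In CD4 T cells replication genes were 1 higher and 0 lower of 26 (median 0.0026) and mitosis genes 0 higher and 0 lower of 34 (median -0.042). Of all genes in CD4 T cells, 2.23% were called higher and 4.58% lower. Ccnd1 stood at 50.4 and 15.2 CPM (-1.73, -2.08 to -1.39) in CD4 T cells and at 324 and 323 CPM in cDC. Markers of cDC stood at 241 and 92.8 CPM in CD4 T cells, and their part in the Ccnd1 value was not tested.

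Cdkn1a, the p21 inhibitor of cyclin-dependent kinases, was called higher in 4 classes: it stood at 11.8 and 26.8 CPM (1.18, 0.82 to 1.55) in NK, 6.14 and 25.2 CPM (2.04, 0.89 to 3.42) in gamma-delta T, 7.23 and 19.8 CPM (1.45, 0.80 to 2.12) in naive T cells and 247 and 405 CPM (0.71, 0.63 to 0.80) in cDC. In Treg-like cells it stood at 55.9 and 73.8 CPM (0.40, 0.10 to 0.71), in monocytes at 488 and 633 CPM (0.37, 0.31 to 0.44), in macrophages at 413 and 486 CPM (0.23, 0.17 to 0.30) and in B cells at 7.97 and 9.85 CPM (0.31, -0.66 to 1.15), and it was not called there. In CD4 T cells it stood at 44.8 and 37.02 CPM (-0.27, -0.55 to 0.0059) and in CD8 T cells at 38.6 and 46.96 CPM (0.28, 0.13 to 0.43). Markers of cDC stood at 40.8 and 111 CPM in naive T, 44.6 and 40.5 CPM in NK and 33.3 and 17.0 CPM in gamma-delta T cells. Their part in the Cdkn1a values was not tested. Cdkn1a was picked out after its values were seen. These classes were compared one by one, and differences between classes were not tested.

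Which gene a UMI belongs to also has limits here. All 40 genes were placed on GRCm38 in GENCODE M21, on 17 chromosomes, and none shares same-strand exon sequence with another counted feature. Mcm7, Gins2, Ccne2, Tk1, Ccna2, Cdc20, Kif20a, Ube2c, Nusap1 and Prc1 overlap exons on the opposite strand. Pcna, Tyms, Ccnb1, Ccnb2 and Stmn1 have pseudogenes named for them that were not among the counted features, so reads shared with a copy cannot be told apart from their own. Levels are per UMI at the 3' end and are not compared between genes.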

How the data were processed

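The files hold raw UMI counts per gene and cell, as deposited by the authors. Per the file headers they were made with Cell Ranger 5.0.0, and the submitters' processing notes also name STAR and mm10. An annotation release was not given in the sources used here. Each library kept cells with at least 500 genes and 1000 UMIs and at most 10% mitochondrial UMIs. Single cells were gated on marker UMIs per 10000. Gate thresholds were set from marker levels, without reading the 40 genes. The genes, lists and named-gene rule were chosen with earlier results of these data known. Doublets were set aside as cells with markers of more than 1 lineage, because Scrublet called 355 wild-type and 0 knockout cells.

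Counts were summed per class and library and divided by the class total. Ratios carry exact conditional binomial intervals, levels exact Poisson intervals and shares exact Clopper-Pearson intervals, all at 95% and for counting error only. A share of 0 carries the upper limit that 3 counts give. PCR duplicates are collapsed by UMI, but the UMIs of 1 cell are not independent. No test was possible with 1 library per genotype, and the labels do not say how many animals a library holds. A call needs 1.5-fold and at least 20 UMIs. Named in every compared class were Mki67, Top2a, Mcm5, Pcna, Ccnb1 and Stmn1 and the 3 highest and 3 lowest ratios with at least 50 UMIs. The rule was tested on simulated data. Clusters came from scanpy 1.11.5 with Leiden, built on 2000 variable genes without the 40 genes and the other cycle lists. Alternatives covered filters, doublet scores, gates, clusters, thinning, scaling and set membership. Promoter windows came from RefSeq and gene positions from GENCODE M21. The other scripts ran in Python 3.11.15 with scipy 1.17.1 and numpy 2.4.6.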

Additional observations from a re-analysis of the deposited data

Results flagged for a closer look

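Classes of the same 2 libraries lay on opposite sides of 0, and the differences between classes were not tested. For the S-phase sum the log2 ratio of knockout over wild type was 0.43 in CD8 T cells, against -0.21 in Treg-like cells, -0.30 in macrophages and -0.11 in monocytes. For the mitotic sum it was 0.42 in CD8 T cells, against -1.17 in monocytes and -0.075 in CD4 T cells. Of these directions the S-phase one in macrophages held under every alternative run, as did both in CD8 T cells. That of the S-phase sum in Treg-like cells turned to 0.061 in thinned cells and 0.26 with classes from clusters, and that in monocytes to 0.0043, 0.51 and, without top doublet scores, 0.043. The mitotic sum turned to 0.36 in CD4 T cells with stricter gates and to 0.52 in monocytes with classes from clusters. The monocyte class from clusters also took in cluster 0, the main cluster of gated macrophages, so its values are not those of monocytes alone.

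Cells set aside for markers of more than 1 lineage also held cycle RNA. Their S-phase sum was 588 CPM in the wild-type and 760.0 CPM in the knockout library, and their mitotic sum 1039.6 and 1476 CPM. Of these cells 67.5% and 64.0% were among the top Scrublet scores, against 2.89% and 4.45% of cells in the 12 classes. That share differed between classes: it was 11.4% and 7.21% in macrophages, 4.86% and 6.65% in CD8 T cells and 0.708% and 1.69% in B cells.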

How the results depend on the processing

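The CD8 T sums kept their sign under the 8 alternatives run, from 0.19 to 0.52 for S-phase and 0.21 to 0.62 for mitotic genes on the log2 scale, and the cell filters changed no sum beyond its interval. Most other sums depended on how cells were chosen, and the cause was not tested. Classes from clusters hold other cells than the gates do. Cluster 0, classed as monocyte, was also the main cluster of gated macrophages (60.8% and 72.9% of them). Cluster 12, made of dividing cells, was classed whole as CD8 T. With cells thinned to 2000 UMIs, S-phase sums moved to CD8 T 0.38, Treg-like 0.061, NK 0.10, gamma-delta T 0.54, naive T 0.28, macrophage -0.23, cDC -0.079, monocyte 0.0043 and mitotic sums to CD8 T 0.45, Treg-like -0.22, NK -0.039, gamma-delta T 1.77, naive T 1.46, B 0.48, macrophage -0.24, cDC -0.25, monocyte -0.63. With classes from clusters, S-phase sums moved to CD8 T 0.19, Treg-like 0.26, NK 0.044, gamma-delta T 0.29, naive T 0.10, macrophage -0.20, monocyte 0.51 and mitotic sums to CD8 T 0.21, CD4 T -0.55, Treg-like 0.90, NK 0.079, gamma-delta T 0.044, naive T -0.76, B -0.27, macrophage 0.41, cDC 0.030, monocyte 0.52. With stricter gates, S-phase sums moved to CD8 T 0.52, CD4 T 0.28, Treg-like -0.0016, naive T 0.17, macrophage -0.22, cDC 0.11 and mitotic sums to CD8 T 0.62, CD4 T 0.36, Treg-like -0.16, NK 0.42, gamma-delta T 2.22, naive T -0.27, B 0.66, macrophage 0.34, monocyte -0.35. With top Scrublet (doublet) scores removed from both libraries, S-phase sums moved to CD4 T 0.31, NK 0.089, monocyte 0.043 and mitotic sums to Treg-like -0.061, NK 0.39, gamma-delta T 1.92, macrophage 0.049. Without Pcna and Tyms, or without Stmn1, Mki67 and Top2a, S-phase sums moved to CD8 T 0.46 and mitotic sums to CD8 T 0.47, Treg-like 0.14, NK 0.17, monocyte -1.34. Without the cell that holds most UMIs of the set in each library, an alternative added after seeing the data, S-phase sums moved to NK 0.24, naive T 0.33 and mitotic sums to NK 0.48, naive T 1.78, B 0.42. Without mitochondrial and ribosomal protein genes, mitotic sums moved to cDC 0.090. No thinning moved the difference in mitotic-positive share (in points) to naive T 6.58, B 4.77, macrophage -7.58. Counting cells from 1 UMI moved the difference in mitotic-positive share (in points) to naive T 8.55, B 5.19, monocyte 0.142. Of these, signs opposite to the main value were given by thinning for Treg-like and monocyte S-phase and Treg-like, NK, macrophage and cDC mitotic sums, by clusters for Treg-like and monocyte S-phase and monocyte, naive T and B mitotic sums, by stricter gates for the cDC S-phase and CD4 T, naive T and Treg-like mitotic sums, by doublet scores for the monocyte S-phase and Treg-like mitotic sums, and by counting from 1 UMI for the monocyte share. Summed over classes, 60 calls were higher and 24 lower. Of all genes, 2.20% to 5.43% were called higher and 1.51% to 5.67% lower, by class. Of the higher calls 26 were in gamma-delta T cells, a count set in part by the minimum of 20 UMIs, and 20 in naive T cells. Thinned cells gave 17 and 8, stricter gates 13 lower and a 2-fold rule 14 lower. Stricter gates gave 10 higher calls in gamma-delta T, 1 in naive T and 24 in CD8 T cells. Classes from clusters gave 5, 0 and 0, with 21 in Treg-like cells. No paired analysis was possible because each genotype has 1 library and the labels give no replicate numbers. Leaving out a replicate was not possible either. Depth limits the gamma-delta T, naive T and B cell values, where many genes have fewer than 50 UMIs.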

Other observations

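Of the classes with too few cells to compare, plasmacytoid dendritic cells, which make type I interferon, held an S-phase sum of 212 and 147 CPM and a mitotic sum of 96.5 and 34.3 CPM in the wild-type and knockout libraries. In the wild-type library 1 such cell held 64.9% of the mitotic UMIs. Neutrophils, which do not divide once mature, held 18 mitotic UMIs in 160 wild-type and 15 in 29 knockout cells. In the knockout library 1 neutrophil held 80.0% of them. No neutrophil was mitotic-positive at 2000 UMIs (0 of 147 in the wild-type library, 0 of 26 in the knockout library), which at a floor of 3 cells allows shares of up to 2.04% and 11.5%. T cells that met no subtype gate held S-phase sums of 647 and 649.7 CPM and mitotic sums of 778 and 881 CPM.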
